A study of Homo sapiens with 288 samples.

Results

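The DNA methylation machinery was described here by 8 genes in single cells: the methyltransferases DNMT1, DNMT3A and DNMT3B, their catalytically inactive relative DNMT3L, the cofactor UHRF1 and the dioxygenases TET1, TET2 and TET3. The genes were chosen by name, and all 8 were found among the 17492 protein-coding genes of the deposited tables. The cells came from the human embryonic stem cell line H1, which had been differentiated in culture along either of the routes labelled EC and TB, and all samples share that line. For EC, cells were plated in E8 medium containing BMP4 at 5 ng/ml and Activin A at 25 ng/ml for 2 days and were then given VEGF and WNT for 3 days. For TB, cells were plated in E7, which is E8 without FGF2, containing BMP4 at 50 ng/ml and SB431542, an inhibitor of Activin and TGF-beta type I receptors. Full-length cDNA of 45 EC and 51 TB cells, made in microfluidic chambers with 1 cell each, was sequenced in the experiments EQ (an equal volume of every library pooled), EQ-Vary (variable volumes) and EQ-75% (a repeat of EQ at lower depth). The labels name no separate cultures, so each cell type in each experiment is 1 sample. SDs therefore describe the spread between cells, and no test between EC and TB was possible.

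Methylation of cytosine in CpG dinucleotides is laid down by DNMT3A and DNMT3B, which DNMT3L assists, and is copied onto the new strand at each round of DNA replication by DNMT1, which UHRF1 brings to hemimethylated sites. The TET enzymes oxidise the methyl group, after which it can be removed by dilution through replication or by base excision repair. Human pluripotent stem cells are known for abundant DNMT3B and TET1, and DNMT3B is usually lost as they differentiate.

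In EQ, 38 EC and 48 TB cells passed the limits on library quality, with total counts from 471598 to 3966827 in EC (median 2025166) and from 365557 to 3479268 in TB (median 1968586). The labels were checked against marker genes. Of 12 EC markers, 11 were at least 2-fold higher in EC by mean CPM (counts scaled to a total of 1000000 in each cell) and 0 in TB, and their summed level ran from 351 to 9686 CPM in EC and from 3.43 to 96.3 CPM in TB. Of 10 TB markers compared, 9 were at least 2-fold higher in TB and 0 in EC, with a summed level of 868 to 4824 CPM in TB and 6.95 to 1014 CPM in EC. The placental hormone gene CGB5 had counts in only 2 of 48 TB cells and CGA had a median of 2.03 CPM there, while the stromal matrix gene LUM had a median of 2438 CPM in TB and 7.96 CPM in EC. SPI1, a myeloid factor, was at 0 in both cell types.

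A total of 3 cells stood apart from their label. Over all genes, the correlation of a cell with the mean of its own type exceeded that with the other type by 0.032 in EC 15, by 0.052 in TB 7 and by 0.053 in TB 9, against 0.066 to 0.110 in the other EC cells and 0.079 to 0.117 in the other TB cells. EC 15 had the highest POU5F1 (384 CPM), NANOG (1502 CPM), L1TD1 (664 CPM) and TFAP2C (995 CPM) of the EC cells, and the lowest KDR (51.3 CPM) and CDH5 (34.4 CPM). TB 7 had the highest POU5F1 (125 CPM) and TB 9 the highest NANOG (169.9 CPM) of the TB cells. Both had shallow libraries, with totals of 494186 and 529656 against a TB median of 1968586, whereas EC 15 had 2007504. TB 40, with the lowest passing TB total (365557), had a difference in correlation of 0.086. The part of depth in these differences was not tested. Without these 3 cells, 12 EC markers and 8 TB markers were past 2-fold in their own type. Values of the 8 genes that rest on these cells are given with and without them, and the same 3 members were past 2-fold either way.

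DNMT1, the maintenance methyltransferase (ENSG00000130816, chr19:10133342-10231286 on the minus strand of GRCh38), was read in every cell of both types but far more unevenly in EC than in TB. The level in EC ran from 0.669 to 759.8 CPM with a median of 41.6 CPM, and in TB from 4.27 to 304 CPM with a median of 91.1 CPM. The mean was 93.8 ± 165 CPM in EC (SD between cells, n = 38) and 98.6 ± 70.9 CPM in TB (n = 48). The means were thus alike at an EC to TB ratio of 0.951 (a log2 ratio of -0.07, which was 0.13 with median-of-ratios size factors and 0.25 with all 96 cells), while the median cell was lower in EC by a log2 ratio of -1.11. This gap between mean and median came from few cells. The 5 highest EC cells held 59.9% of the EC level and EC 13 alone held 21.3%, whereas the 5 highest TB cells held 24.6%. Only EC 11 (702 CPM) and EC 13 (759.8 CPM) exceeded all TB cells, and 4 EC cells lay below all of them. The SD of log2(CPM + 1) was 2.21 in EC and 1.42 in TB. The summed count was 7773 in EC (exact Poisson 95% interval 7601 to 7948) and 9697 in TB (9505 to 9892), intervals that cover counting error only because reads without molecular identifiers are not independent molecules.

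UHRF1 (ENSG00000276043, chr19:4903080-4962154, plus strand), which recognises hemimethylated CpG sites, was the rarest of the 7 genes that had any count in EQ. It had at least 1 count in 3 of 38 EC cells (7.89%, exact binomial 95% interval 1.66% to 21.4%) and in 17 of 48 TB cells (35.4%, 22.2% to 50.5%). With every cell thinned to 250000 counts, the expected shares were 5.41% in EC and 21.3% in TB. At least 5 counts were reached in 2 EC and 9 TB cells. The mean level was 1.43 ± 6.41 CPM in EC and 3.37 ± 8.17 CPM in TB, which is 2.36-fold higher in TB. In EC the signal came almost wholly from EC 7 (35.2 CPM) and EC 15 (18.9 CPM), and the latter is a cell that stood apart. Without EC 15, TB 7 and TB 9 the TB level was 3.67-fold higher, and without EC 7 alone it was 6.51-fold higher. The TB value also depended on a single cell, since without TB 39 (46.1 CPM) the EC to TB ratio moved from 0.424 to 0.581 and was no longer past 2-fold.

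These low shares need a measure of background. The 7 EC markers with means over 100 CPM in EC and at least 50-fold lower in TB had TB means of 0.163% to 1.14% of their EC means and had counts in 21 to 48 of the 48 TB cells. CDH5, for example, a cadherin of endothelial junctions, had a count in 31 TB cells at a median of 0.446 CPM. The 35.4% of TB cells with UHRF1 is below the shares of all 7 of these markers, so a count or 2 of any gene was not read here as expression. The highest level of these markers in a TB cell ran from 5.47 CPM (ERG) to 77.4 CPM (PECAM1, in TB 9, which stood apart). These markers are abundant in the other type and UHRF1 is not, so that range is no measure for its highest levels. The highest EC level, 35.2 CPM in EC 7, was 32.5 CPM in EQ-Vary and 20.1 CPM in EQ-75%. The highest TB level, 46.1 CPM in TB 39, was 41.3 and 36.8 CPM there.

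DNMT1 and UHRF1 were the members whose promoters held E2F-type motifs, the sequences through which many replication genes are switched on at the start of S phase. The 4 motifs searched on both strands were TTTCCCGC, TTTGGCGC, TTTGCCGC and TTTCGCGC (the last can overlap its own reverse complement), in RefSeq promoters of GRCh38.p14 that span 250 bases before to 50 bases after the start. Promoters were found for 7 of the 8 genes, and 2 of these 7 held a motif. Of all 27305 genes with an entry, 3.99% had a motif in at least 1 promoter (3.31% of the 35116 promoters), as did 12 of 19 S-phase genes and 2 of 11 G2/M genes. The stretches below are shown because levels of DNMT1 and UHRF1 are set beside S-phase genes further on, and capitals mark the motif (a match describes letters, not binding). The DNMT1 stretch is chr19:10194948-10195007 on the minus strand, and the UHRF1 stretch is chr19:4909441-4909500 on the plus strand.
DNMT1: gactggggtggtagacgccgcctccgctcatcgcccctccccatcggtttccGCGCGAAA
UHRF1: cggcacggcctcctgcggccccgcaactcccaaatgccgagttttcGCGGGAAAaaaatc

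Among TB cells with more RNA of S-phase genes, DNMT1 was higher and UHRF1 had counts in more cells. Across the 48 TB cells, the Pearson r of log2(CPM + 1) with the mean of 21 S-phase genes was 0.43 for DNMT1 and 0.45 for UHRF1, and the same values in EQ-75% were 0.51 for both. DNMT1 had a median of 64.1 CPM in the 16 TB cells with the lowest S-phase level and of 138 CPM in the 16 with the highest. UHRF1 had counts in 4 and 11 of these cells, with medians of only 0 and 0.648 CPM. These are cells with any count, and only 9 of the 48 TB cells had at least 5. Without TB 39, the r of UHRF1 in TB was 0.35. In EC, r was 0.11 for DNMT1, and its median was 40.7 CPM in the lowest and 43.3 CPM in the highest 12 cells. The r of 0.68 for UHRF1 in EC rested on few cells, and it was 0.44 without EC 15 and 0.39 without EC 7 and EC 15. These values describe cells of 1 sample that were pooled for sequencing, and the median totals of the lowest and highest cells were 2345824 and 2118910 in TB and 2044793 and 1763366 in EC.

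**Figure D1:**
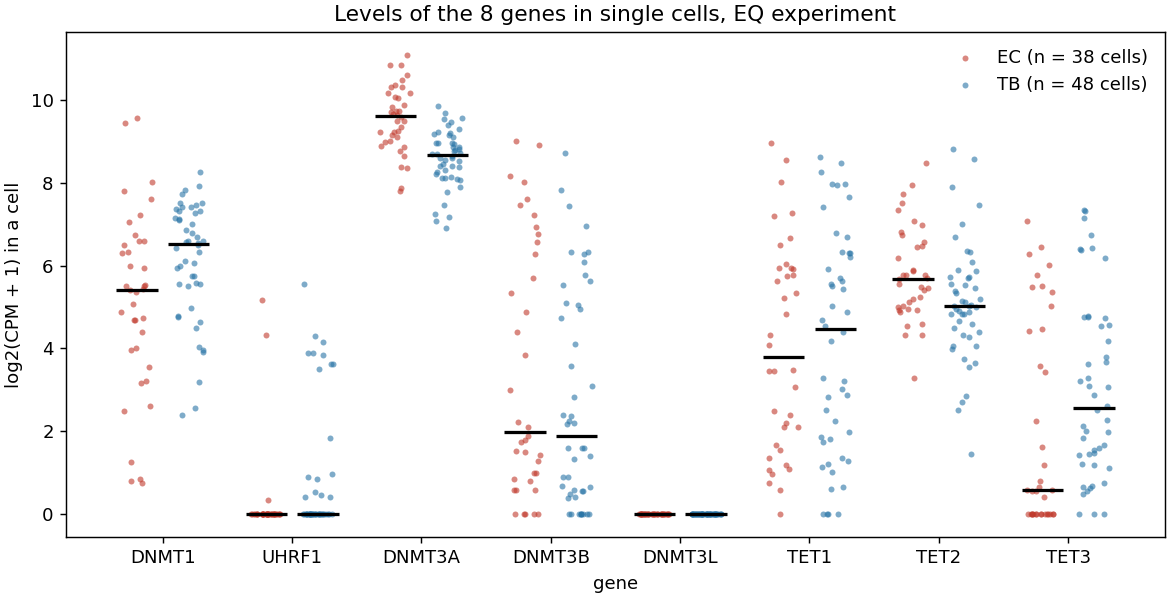
Level of each of the 8 genes in single cells of EQ, as log2(CPM + 1) on the vertical axis, with 1 point per passing cell (38 EC in red, 48 TB in blue) and a black bar at the median. DNMT3A is the highest gene in both types and is shifted upward in EC, DNMT1 and TET3 have lower medians in EC, and DNMT3L is at 0 in every cell.

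DNMT3A (ENSG00000119772, chr2:25227855-25342590, minus strand), a de novo methyltransferase, was the most abundant member and the one that differed most evenly between the cell types. Its level ran from 222 to 2172 CPM in EC with a median of 781 CPM, and from 120.1 to 920.1 CPM in TB with a median of 407 CPM. The means were 865 ± 467 CPM in EC and 425 ± 185 CPM in TB, 2.04-fold higher in EC. The ranges overlapped, but 13 EC cells lay above all TB cells, 6 TB cells lay below all EC cells, and EC was higher in 82.6% of all pairs of an EC and a TB cell. The medians gave a log2 ratio of 0.94 and the means of log2(CPM + 1) a difference of 0.97. The fold of the means was 2.07 in both EQ-Vary and EQ-75%. It lies just past 2-fold. It was 1.95 without EC 23, the highest EC cell, and leaving out any 1 of 5 of the 86 cells took it below 2-fold.

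DNMT3B (ENSG00000088305, chr20:32762385-32809359, plus strand), the other de novo enzyme and a gene typical of undifferentiated cells, was at low level in most cells and high in a minority of both types. The level ran from 0 to 513 CPM in EC with a median of 2.97 CPM, and from 0 to 420.0 CPM in TB with a median of 2.77 CPM. At least 50 CPM was reached in 12 EC and 9 TB cells, while 12 EC and 19 TB cells were under 1 CPM. The mean was 69.6 ± 127 CPM in EC and 33.1 ± 73.6 CPM in TB, 2.10-fold higher in EC. The log2 ratio of the medians was only 0.07, so the difference in means lay in the minority of high cells and not in the typical cell. The 5 highest cells held 65.6% of the EC and 64.4% of the TB level. The fold was 1.74 without EC 7 and 2.80 without TB 20, the highest cell of each type, and leaving out any 1 of 4 cells took it below 2-fold. It was 2.21 in EQ-Vary and 2.97 in EQ-75%, where EC 1 (531 counts) and EC 14 (851 counts), which had failed the limits in EQ, were among the high EC cells.

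High DNMT3B did not mark the cells that stood apart. EC 15, with the highest POU5F1 and NANOG of the EC cells, had 0.996 CPM of DNMT3B, and TB 7 and TB 9 had 2.02 and 7.55 CPM. The r of DNMT3B with 9 pluripotency genes was 0.12 in EC and -0.12 in TB. Between DNMT3B and DNMT3A, r was 0.02 in EC and -0.17 in TB. Per kilobase of transcript, DNMT3B made up a median of 0.919% of the sum of both enzymes in EC and 1.38% in TB, with highest values of 69.1% and 76.7%. It exceeded DNMT3A in 2 of 38 EC cells and 5 of 48 TB cells.

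**Figure D2:**
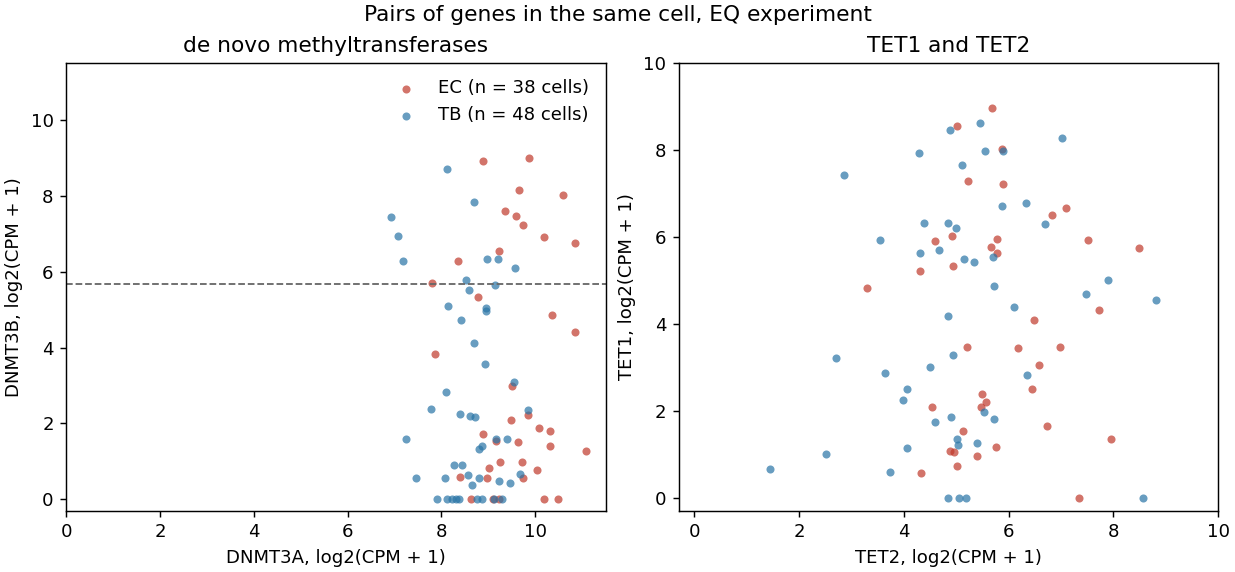
Levels of DNMT3A and DNMT3B (left) and of TET2 and TET1 (right) in the same cell of EQ, both axes as log2(CPM + 1), with 1 point per cell (38 EC in red, 48 TB in blue). On the left, DNMT3A stays within a narrow band while DNMT3B spreads from 0 to high values, and 12 EC and 9 TB cells reach the dashed line at 50 CPM.

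DNMT3L (ENSG00000142182, chr21:44246339-44262216, minus strand), the cofactor of de novo methylation in germ cells, had 0 counts in all passing cells of EQ and EQ-Vary. Taking 3 as the limit that a count of 0 allows, in EQ this leaves a share of up to 7.89% of EC cells and 6.25% of TB cells with a count, and a pooled level of up to 0.0383 CPM in EC and 0.0311 CPM in TB. The upper bounds of the exact 95% intervals used for the other genes were wider, at 9.25% and 7.40% of cells and 0.0471 and 0.0382 CPM. In EQ-75% it had 5 counts (3.69 CPM) in EC 1 and 0 in the other passing cells. EC 1 was also among the EC cells with high DNMT3B in that experiment, and its libraries in EQ and EQ-Vary held too few reads to compare, 11410 and 5752 counts in all.

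The TET genes showed more cell-to-cell variation than difference between the types. TET1 (ENSG00000138336, chr10:68560337-68694487, plus strand), the TET enzyme best known from pluripotent cells, ran from 0 to 496 CPM in EC with a median of 13 CPM and from 0 to 394 CPM in TB with a median of 21.2 CPM. Its means were 58.5 ± 106 CPM in EC and 66.4 ± 101 CPM in TB, an EC to TB ratio of 0.880. At least 1 count was found in 37 of 38 EC and 44 of 48 TB cells, at least 5 counts in 28 and 34, and at least 50 CPM in 13 and 16. EC 15 had the second highest TET1 of the EC cells (373 CPM) and TB 9 the third highest of the TB cells (308 CPM). Without these cells and TB 7, the means were 50.0 ± 93.1 CPM in EC and 62.5 ± 96.5 CPM in TB.

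TET2 (ENSG00000168769, chr4:105145875-105279816, plus strand) was found in every passing cell of EQ. It ran from 8.75 to 358 CPM in EC with a median of 50.2 CPM, and from 1.71 to 447 CPM in TB with a median of 31.6 CPM. The means were 76.5 ± 72.8 CPM and 58.6 ± 86.6 CPM, a ratio of 1.31, and EC was higher in 66.9% of cell pairs. In EQ-75% the ratio of means was 0.867, with TB 48, which had failed the limits in EQ, at 814 CPM. EC 29, the highest EC cell in EQ (358 CPM), failed the limits in EQ-75% with 5954 counts. The medians there were 49.7 CPM in EC and 30.9 CPM in TB, so the means changed order and the medians did not.

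TET3 (ENSG00000187605, chr2:73984910-74108176, plus strand) was the lowest TET gene, and it was found in fewer EC than TB cells. At least 1 count was present in 23 of 38 EC cells (60.5%, 43.4% to 76.0%) and in 45 of 48 TB cells (93.8%, 82.8% to 98.7%), and after thinning the shares were 39.7% and 63.8%. At least 5 counts were reached in 14 EC and 32 TB cells. The level ran from 0 to 135 CPM in EC with a median of 0.494 CPM and from 0 to 161 CPM in TB with a median of 4.88 CPM. The means were 17.1 ± 30.8 CPM in EC and 24.5 ± 42.4 CPM in TB, an EC to TB ratio of 0.698, while 22 EC and 9 TB cells were under 1 CPM. The order was the same in the other experiments, with 57.9% against 93.5% of cells in EQ-Vary and 51.3% against 92.0% in EQ-75%.

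Within a cell, per kilobase of transcript, TET2 was the leading TET gene in 23 of 38 EC and 25 of 48 TB cells, TET1 in 11 and 19, and TET3 in 4 and 4. The median share of TET2 in the TET sum was 65.3% in EC and 44.2% in TB, that of TET1 11.9% and 23.5%, and that of TET3 0.542% and 6.19%. The SD between cells of the TET2 share was 31.1 percentage points in EC and the same in TB, wider than the difference between the medians. These shares depend on the length taken for each gene. With the union of exons in place of the representative transcript, the median share of TET1 was 17.9% in EC and 33.8% in TB.

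**Figure D3:**
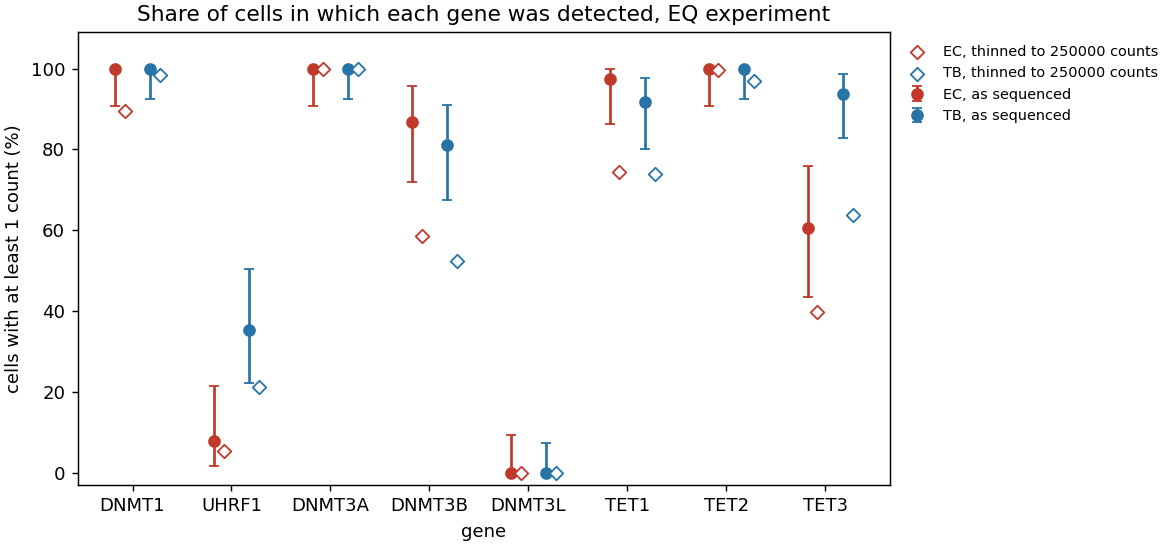
Share of passing EQ cells with at least 1 count of each gene, in percent, for EC (red, n = 38) and TB (blue, n = 48), with filled points and exact binomial 95% intervals as sequenced and open diamonds for the share expected at 250000 counts per cell. UHRF1 (7.89% and 35.4%) and TET3 (60.5% and 93.8%) were found in fewer EC than TB cells at both depths.

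By the rule of a 2-fold difference in mean CPM, 2 of the 7 members that could be compared were higher in EC (DNMT3A and DNMT3B), against 19.4% of all 12972 genes compared, and 1 was higher in TB (UHRF1), against 26.9%. The members' counts are close to these background shares. UHRF1 passed the limit of detection in 10% of cells only through TB (35.4%, against 7.89% in EC). Its call thus draws on the same difference as the filter. The median log2 ratio of EC to TB was -0.07 for the members and -0.07 for all genes. The same genes were past 2-fold in EQ-Vary and EQ-75%. By the medians over cells, however, 0 members were higher in EC and 2 higher in TB (DNMT1 and TET3), and by means of log2(CPM + 1) 0 were past 2-fold in either direction.

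Ordered by mean CPM per kilobase of the representative transcript, DNMT3A led in EC with 91.8 ± 49.6, followed by DNMT1 with 17.8 ± 31.2, DNMT3B with 16 ± 29.3, TET2 with 7.98 ± 7.60, TET1 with 6.09 ± 11, TET3 with 1.41 ± 2.56 and UHRF1 with 0.367 ± 1.65. In TB the order was DNMT3A with 45.1 ± 19.6, DNMT1 with 18.7 ± 13.4, DNMT3B with 7.63 ± 17.0, TET1 with 6.91 ± 10.5, TET2 with 6.11 ± 9.03, TET3 with 2.03 ± 3.52 and UHRF1 with 0.865 ± 2.10. With the union of exons as the length, both close pairs of the EC order turned, with DNMT3B (15.0) above DNMT1 (11.7) and TET1 (6.09) above TET2 (4.76), and the TB order stayed as it was. DNMT3A exceeded DNMT1 within 37 of 38 EC cells and 42 of 48 TB cells. For every other pair of neighbours, the SD of the difference between cells exceeded its mean. DNMT1 exceeded DNMT3B in 25 EC cells but their mean difference was 1.73 ± 37.8 CPM per kilobase, and DNMT3B exceeded TET2 in only 13 EC cells although its mean was larger. In TB, DNMT3B was above TET1 in 18 cells and below it in 29, and TET1 was above TET2 in 19 and below it in 29.

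Cell-to-cell spread was set against that of other genes of the same level by dividing the SD of log2(CPM + 1) by a lowess trend over all genes with a mean of at least 1 on that scale. DNMT3B had the largest ratio of the members in EC (1.38, above 93.4% of 9340 genes) and was at 1.16 in TB (74.5th percentile of 9978 genes). TET1 was at 1.15 in EC and 1.23 in TB, and TET3 at 1.14 and 0.959. DNMT1 differed between the types in this measure, at 1.09 in EC and 0.824 in TB. The values were 1.04 and 0.807 in EQ-Vary and 0.989 and 0.790 in EQ-75%, so DNMT1 lay near the trend in EC and below it in TB. DNMT3A (0.765 and 0.648) and TET2 (0.582 and 0.709) varied less than most genes of their level.

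The even levels of DNMT3A and TET2 coincided with a property of the counts. Reads with more than 1 matching gene are shared out by RSEM, which leaves values that are not whole. Of the nonzero values in EQ, 96.7% were not whole for TET2, 94.8% for DNMT3A and 51.1% for DNMT1, and 14.3% to 32.2% for the other detected members, against 62.0% of all values. Genes with a spread ratio under 0.75 had a median of 97.9% in both cell types, and those of at least 0.75 had 41.5% in EC and 40% in TB. Yet few windows of 51 bases in these genes matched transcripts of other protein-coding genes with up to 2 mismatches, 0.334% for TET2, 0.126% for DNMT3A, 4.37% for DNMT1 and 4.09% for UHRF1, all of them in 3' untranslated regions. How much of the TET2 and DNMT3A levels came from shared reads was not tested.

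**Figure D4:**
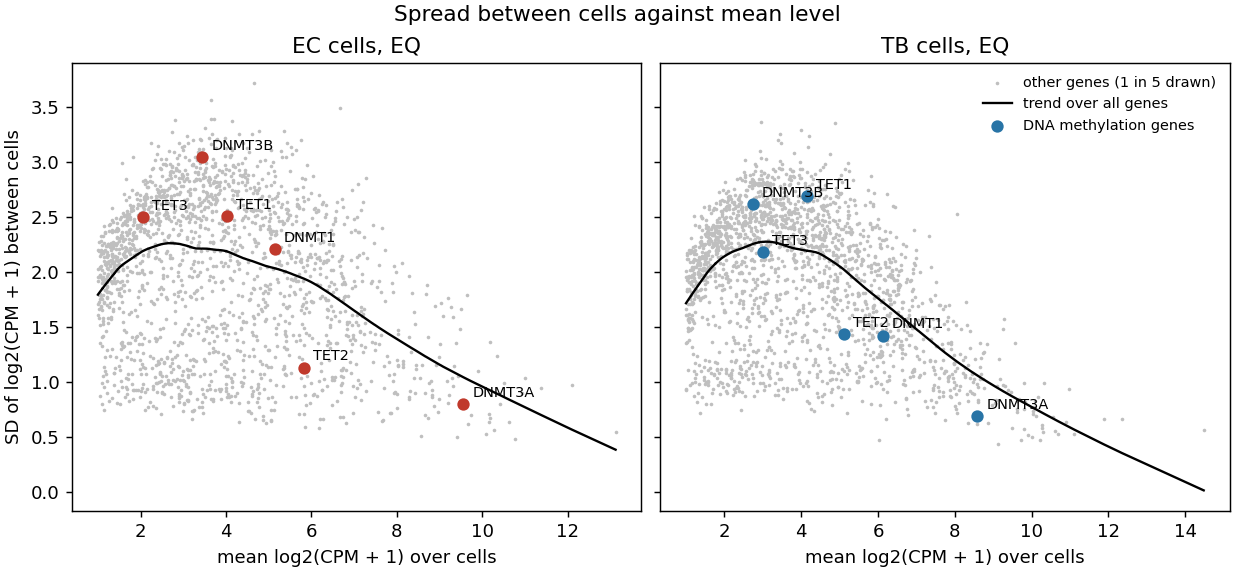
SD between cells against the mean over cells of log2(CPM + 1) in EC (left) and TB (right), EQ, with other genes in grey (1 in 5 drawn), the lowess trend over all genes in black and the members with a mean of at least 1 in colour. DNMT3B (ratio 1.38 in EC) lies above the trend, and TET2 (0.582 in EC) and DNMT3A (0.765 in EC) lie below it.

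Correlations between members across cells were low. Many values were at or near 0, with UHRF1 counts in only 3 of 38 EC cells, which limits r, so these values cannot decide whether the members vary together. Of 21 pairs, r ranged from -0.15 to 0.41 in EC (median 0.07) and from -0.17 to 0.19 in TB (median 0.05), and 0 pairs reached 0.5. The highest EC value, between UHRF1 and TET1, was -0.03 in TB. DNMT1 and UHRF1 were at 0.07 in EC and 0.19 in TB, and of the 17 TB cells with a UHRF1 count 15 had DNMT1 of at least 50 CPM, against 33 of 48 TB cells in all. Only 9 TB cells had at least 5 UHRF1 counts, so the 17 include cells with too few counts to read as expression.

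The genes most like each member were sought as those with the highest smaller value of r in EC and TB, among 8345 genes. For TET2, 65 genes had r of at least 0.5 in both, led by HELB (0.60 in EC and 0.61 in TB), FRK (0.60 and 0.64) and ODF2L (0.59 and 0.62), whose values were not whole in 98.9% to 99.0% of cases, like those of TET2. The r of TET2 with the log10 total count was -0.41 in EC and -0.15 in TB. For the other 5 members compared, 0 genes reached 0.5 in both types. Among the nearest were SLC10A3 (0.42 and 0.51), HMGB2 (0.49 and 0.41) and PRPSAP2 (0.42 and 0.40) for DNMT1, CHRNB4 (0.34 and 0.39) and ARL16 (0.33 and 0.43) for DNMT3A, and SLC2A14 (0.36 and 0.44, a gene nearly identical to SLC2A3 and so uncertain), ATG4B (0.33 and 0.32) and KIAA1191 (0.41 and 0.32) for DNMT3B. For TET1 they were PHTF2 (0.45 and 0.46), ITGA6 (0.56 and 0.35) and FGF2 (0.51 and 0.33), and for TET3 ATP2C1 (0.38 and 0.42) and CDCA4 (0.32 and 0.34). HMGB2 encodes a chromatin protein of dividing cells.

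Because the 3 experiments used the same cDNA, differences between them within a cell arose after the cDNA was made. As the authors describe them, EQ-Vary differs from EQ in the volumes pooled, whereas for EQ-75% the cDNA was also equalized anew. EC 1, EC 14, TB 4, TB 28 and TB 48 failed the limits in both EQ and EQ-Vary but passed in EQ-75%. TB 9 and TB 40 passed in EQ but failed in EQ-Vary. Whether EQ-Vary reused the EQ libraries was not tested, so only EQ-75% is taken to cover library preparation. For DNMT3B, the 12 EC cells with at least 50 CPM in EQ were the same 12 in EQ-Vary and, among the 37 EC cells that passed in both, in EQ-75%, with r over cells of 0.99 and 0.98. In TB, 9 of 9 were shared with EQ-Vary, and 8 were shared with EQ-75% with 1 cell high in each alone. The high DNMT3B cells were thus nearly the same in repeated sequencing, and differences made in the cell and in making the cDNA cannot be told apart. Detection at the bottom of the range was less stable, since 6 EC cells had DNMT3B counts in EQ only and 1 in EQ-75% only, with at most 5 counts.

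DNMT3A was lower in EQ-75% than in EQ within 35 of 37 EC cells and 41 of 47 TB cells, by a log2 difference of -0.22 ± 0.16 in EC and -0.18 ± 0.19 in TB. DNMT1 was lower by -0.16 ± 0.47 in EC and -0.22 ± 0.29 in TB. The median over 12972 genes was -0.10 in EC and -0.06 in TB, in the same direction and smaller than these shifts. The differences between EQ-Vary and EQ were smaller, -0.06 ± 0.08 in EC and -0.04 ± 0.09 in TB for DNMT3A. The shift between experiments was alike in both cell types, and the EC to TB fold of DNMT3A stayed at 2.04 to 2.07.

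**Figure D5:**
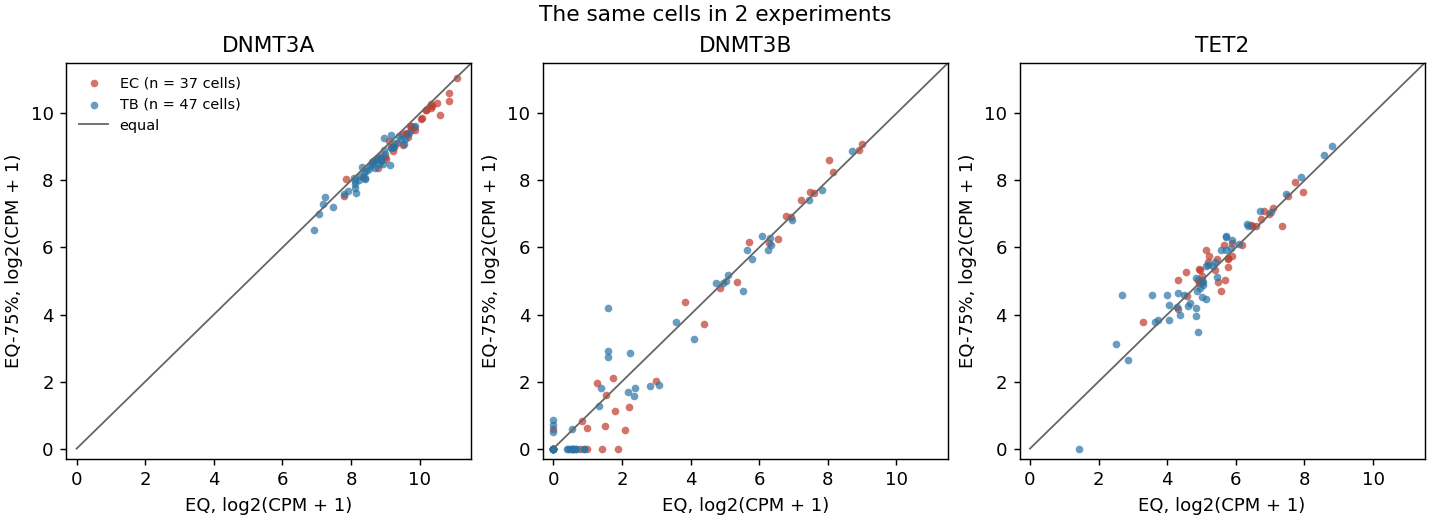
Level of DNMT3A, DNMT3B and TET2 in the same cells in EQ (horizontal) and EQ-75% (vertical), both as log2(CPM + 1), for 37 EC (red) and 47 TB cells (blue) that passed in both, with the line of equal values. DNMT3A lies slightly below the line (mean log2 difference -0.22 in EC), and DNMT3B keeps its high cells but scatters near 0.

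Genes that work with the members were described from lists, again by mean CPM and 2-fold differences, and with no test. Of 7 partners of maintenance methylation, 0 were higher in EC and 1 in TB, against 19.4% and 26.9% of all genes. This was HELLS, a chromatin remodeller needed for methylation of repeats, with 6.85 ± 12.5 CPM in EC and 54.2 ± 66.0 CPM in TB, 7.92-fold higher in TB. CDCA7, which recruits HELLS, had 22.8 ± 59.0 CPM in EC and 31.1 ± 60.9 CPM in TB, and it too was past 2-fold in TB once EC 15, TB 7 and TB 9 were left out. The median log2 ratio of the list was -0.45. S-phase genes lay on the same side, with 11 of 21 at least 2-fold higher in TB and 0 in EC, while 6 of 15 G2/M genes were higher in EC and 0 in TB. The most abundant S-phase genes past 2-fold were the replication clamp PCNA (32 ± 80.0 CPM in EC and 84.0 ± 124 CPM in TB), the origin licensing factor CDC6 (4.63 ± 5.28 and 51.6 ± 125 CPM) and the helicase subunits MCM4 (15.1 ± 26 and 83.7 ± 115 CPM), MCM5 and MCM6. Among the G2/M genes they were the mitotic regulator BIRC5 (343 ± 625 CPM in EC and 113 ± 220.3 CPM in TB), TOP2A (167 ± 499 and 65.4 ± 174 CPM), CDC20, BUB1 and AURKB, with medians of at most 3.52 CPM in EC and 5.02 CPM in TB. The part of these differences in the HELLS and UHRF1 levels was not tested.

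Among 7 genes from families of methyl-CpG readers, ZBTB33 was higher in EC (49.8 ± 119 against 20.4 ± 58.8 CPM), and MBD1 (12 ± 30.2 against 35.5 ± 83.5 CPM) and MBD3 (3.04 ± 5.88 against 8.72 ± 18.6 CPM) were higher in TB. Of all genes compared, 19.4% were at least 2-fold higher in EC and 26.9% in TB. The list goes by family, and whether each protein binds methylated CpG was not tested. The medians of ZBTB33 were 0.823 CPM in EC and 0.804 CPM in TB, so its difference, too, lay in few cells.

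Of 12 genes of oxidation-dependent demethylation and repair, 1 was higher in EC and 5 in TB, against 19.4% and 26.9% of all genes. IDH1 was added to the latter 5 without EC 15, TB 7 and TB 9. CXXC5, a CpG-binding protein that interacts with TET2, had 30.5 ± 50.9 CPM in EC and 9.45 ± 21.4 CPM in TB. The uracil glycosylase SMUG1 (3.32 ± 15.0 CPM in EC and 42.9 ± 61.8 CPM in TB) and the repair scaffold XRCC1 (14 ± 27.3 and 43.7 ± 59.6 CPM) were higher in TB. The stress-response genes GADD45G (0.286 ± 0.916 and 28.3 ± 40.2 CPM) and GADD45B (0.0480 ± 0.144 and 14.3 ± 40.6 CPM) and the TET2 regulator CXXC4 (0.0449 ± 0.235 and 11.7 ± 37.5 CPM) were near 0 in EC, with counts in 5, 4 and 2 of 38 cells. TDG, the glycosylase that excises oxidised methylcytosine, was not past 2-fold, with 58.7 ± 103 CPM in EC and 65.6 ± 69.8 CPM in TB.

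Of 8 genes that guard or repress loci through methylation, DPPA3 and TRDMT1 were higher in EC, and EHMT1, EHMT2 and KDM1B were higher in TB. The shares over all genes were 19.4% and 26.9%. DPPA3, which keeps UHRF1 from chromatin in oocytes and early embryos, had a mean of 4.82 ± 20.2 CPM in EC and 0.442 ± 1.06 CPM in TB, with a median of 0 in both and a highest EC value of 124 CPM. TRDMT1, which despite its family name methylates tRNA, had 40.8 ± 70.3 CPM in EC and 17.0 ± 34.8 CPM in TB. KDM1B, a histone demethylase of the oocyte, had 0.248 ± 0.843 CPM in EC and 2.61 ± 5.13 CPM in TB, and EHMT1, the partner of EHMT2, had 15.4 ± 28.2 CPM and 37.5 ± 48.8 CPM. EHMT2, a histone H3 lysine methyltransferase, had 8.08 ± 14.2 CPM in EC and 34 ± 66.8 CPM in TB. QSER1, which shields DNA methylation valleys from DNMT3 enzymes, had 129 ± 171 CPM in EC and 116 ± 115 CPM in TB.

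In the supply of methyl groups, MAT2A, the synthase of S-adenosylmethionine, was 4.07-fold higher in EC (254 ± 226 CPM against 62.5 ± 91.2 CPM), and its medians were 241 and 11.1 CPM. MTR, methionine synthase, was 3.49-fold higher in TB (100.3 ± 145 CPM in EC and 350.4 ± 254 CPM in TB). The other 4 of these 6 genes were not past 2-fold, while 19.4% of all genes were higher in EC and 26.9% in TB. The medians of MTR were 40.7 CPM in EC and 342 CPM in TB, so for both genes the typical cell differed in the direction of the mean.

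Of 7 genes that are known to be silenced by promoter methylation outside the germ line or the trophoblast, only 3 were found in at least 10% of the cells of either type. ELF5, a trophoblast factor, was 2.04-fold higher in TB (1.68 ± 3.21 CPM in EC and 3.43 ± 8.83 CPM in TB), with medians of 0.752 and 0.745 CPM. ELF5 had counts in 25 of 38 EC and 37 of 48 TB cells. MAEL had counts in 33 EC and 42 TB cells, with medians of 3.35 and 2.56 CPM, and was not past 2-fold. SYCP3 had counts in 2 EC and 10 TB cells, and DAZL in 1 cell of each type. DDX4, TEX101 and ASZ1 had 0 counts in both types. Of 8 pluripotency genes compared, POU5F1 (28.5 ± 63.0 CPM in EC and 13.4 ± 20.5 CPM in TB), NANOG (83.2 ± 239 and 34 ± 29.8 CPM) and GDF3 (55.4 ± 156 and 0.0706 ± 0.287 CPM) were higher in EC. DPPA4 (33.6 ± 51.2 and 95.5 ± 104 CPM) and L1TD1 (means of 37.2 and 426 CPM, medians of 8.75 and 421 CPM) were higher in TB. Over all genes, 19.4% were higher in EC and 26.9% in TB. POU5F1 and NANOG have near-identical copies in the genome that could share their reads, and without EC 15, TB 7 and TB 9 only GDF3 of the first 3 remained past 2-fold.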

How the data were processed

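The authors trimmed reads to 51 bp, mapped them with Bowtie 1.2.3, allowing 2 mismatches, to GRCh38 transcripts of protein-coding genes, and deposited RSEM 1.2.31 expected counts without normalization (CASAVA 1.8.2 is also listed in the submitters' processing notes). The annotation release is not given in the sources used here. Of the sample columns, 0 were unused, and unEQ libraries were not analysed here. Counts were rounded and scaled to a total of 1000000 (CPM). Cells passed with a log10 total of at least 5.4 and at most 31% of counts in their top 50 genes. Depth limits precision most near 1 count.

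Each cell type in each experiment was 1 sample, so no p-value was computed. Genes with a count in at least 10% of passing cells of EC or TB were compared by mean CPM, and 2-fold was the limit. All 8 members are named. From each list, genes past 2-fold are named, at most the 5 most abundant, or the 2 most abundant where none is. For each member found in at least 50% of cells of both types, the 3 most similar genes are named, except some that are not reported here. Other genes were named after their values were seen. Members and lists were chosen with earlier results of these data known. ZBTB38, ZNF445, ZFP42 and GABRP were not analysed here, and PCLAF was matched by gene ID. Lengths and coordinates were from GENCODE v44, and promoters from RefSeq. The steps were tested on simulated data. Python 3.11.15, numpy 2.4.6, pandas 2.3.3, scipy 1.17.1, statsmodels 0.14.6, matplotlib 3.10.9 and bwa 0.7.19 were used.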

Additional observations from a re-analysis of the deposited data

Results flagged for a closer look

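The cells below the limits on library quality, which enter no comparison, still held reads of the members in EQ above the 3 counts that a count of 0 allows. Over the 7 such EC cells the summed counts were 713 for DNMT3A, 244 for DNMT1, 75 for TET3, 46 for TET2 and 25 for TET1. Over the 3 such TB cells they were 32 for DNMT3A, 11 for DNMT1 and 7 for UHRF1. The 7 UHRF1 counts lay in TB 4, whose library passed in EQ-75% with the highest UHRF1 of that experiment (84.0 CPM). DNMT3L had 0 counts in all of these cells.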

How the results depend on the processing

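No result comes from a test, so no paired test was run, but differences between experiments were taken within cells. The 2 members at least 2-fold higher in EC became 1 with median-of-ratios size factors (DNMT3A), and 0 with all 96 cells, with the median over cells, with means of log2(CPM + 0.1) or log2(CPM + 1), and without the cells highest in pluripotency or in cell cycle genes. Leaving out 1 cell at a time gave 0 to 2. The 1 member higher in TB became 3 with means of log2(CPM + 0.1) (DNMT1, UHRF1 and TET3), 2 with the median over cells and without the cells highest in pluripotency genes, 0 with means of log2(CPM + 1), and 0 to 1 when single cells were left out. DNMT3A stayed close to the threshold where it was lost (log2 0.89 to 0.97, against 1.03), and DNMT3B ranged from 0.07 to 0.96 (1.07). The cause was not tested. Members found in at least 90% of cells fell from 4 to 2 in EC and from 5 to 3 in TB at 250000 counts, by construction, and to 3 in TB for at least 5 counts. With lengths from the union of exons 4 of 8 members kept their place in the EC order, and in EQ-75% 5 of 8 did in the TB order. Without EC 15, TB 7 and TB 9, chosen after seeing the data, the counts were 2 and 1. DNMT1, past 2-fold in TB by medians, was on the EC side by means with all 96 cells (log2 0.25), without the cells highest in cell cycle genes (0.23) and with size factors (0.13).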
